A study of Mus musculus with 6 samples.

Results

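The genes described here are chaperones and disulfide isomerases of the endoplasmic reticulum (ER), and 9 of the 10 listed genes could be described, of 13406 genes named on the array. They were read in lungs of 6 OVA mice, which are C57 mice given ovalbumin for both sensitization and challenge, set against control C57 mice, whose lung RNA had been pooled. Each of the 6 arrays carried amplified RNA of 1 OVA mouse in the first channel and the same control pool in the other. Age, sex, dose, adjuvant and times were not given in the sources used here, and the control pool is 1 sample made of an unstated number of mice. The genes were chosen by name, with a value on at least 4 of 6 arrays, and because their ratios were seen to persist in mouse 3, where most other responses were small. The ratios themselves thus chose the genes, and those of the chosen genes are a description without a test. P4hb lay just outside the rule with values on 3 arrays, while the 10 probes of the other 9 genes each had values on all 6.

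Proteins that enter the secretory pathway are folded in the ER by chaperones that hold unfolded chains, by lectins that retain chains through their sugar, and by isomerases that form and exchange disulfide bonds. When unfolded chains accumulate, the sensors Ire1 (gene Ern1), Perk (gene Eif2ak3) and Atf6 start the unfolded protein response, which raises transcription of many of these chaperones. In the lung, cells that secrete much protein, among them mucous, plasma and alveolar type 2 cells and matrix-forming fibroblasts, depend on this machinery.

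Sequence elements known from this response were looked for in the promoters. Those of Hspa5, Hsp90b1 and Calr are shown, which had large ratios and carry such elements. Pdia3 had a mean log2 ratio as large as that of Hspa5 (-0.88 and -0.87) and carried none of them. The ER stress response element, ERSE, was searched on both strands as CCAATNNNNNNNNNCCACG. In background knowledge its CCAAT part is bound by NF-Y and its CCACG part by Atf6 and Xbp1. It was present in 5 of the 9 listed genes with a promoter sequence, against 37 of 27025 genes, or 0.137%, over windows of 300 bases (250 before and 50 after the annotated gene start, RefSeq, build GRCm38.p6). These 5 were Hspa5, Hsp90b1, Calr, Canx and Pdia6, and Hsp90b1 held 2 copies. The listed genes belong to the response from which the element is known, so nothing is read from 5 of 9 beside 0.137%. The 250 bases before the gene start follow in the direction of the gene, with the fixed letters of each element in capitals. The element of Calr and the second one of Hsp90b1 lie on the opposite strand, so that they read in reverse.

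Hspa5, chr2:34771840-34772089, plus strand: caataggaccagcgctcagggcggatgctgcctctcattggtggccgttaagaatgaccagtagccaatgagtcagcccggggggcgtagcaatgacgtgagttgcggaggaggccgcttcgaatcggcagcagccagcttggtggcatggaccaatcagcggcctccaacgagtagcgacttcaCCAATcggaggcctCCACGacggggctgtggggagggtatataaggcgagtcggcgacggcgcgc

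Hsp90b1, chr10:86705445-86705694, minus strand: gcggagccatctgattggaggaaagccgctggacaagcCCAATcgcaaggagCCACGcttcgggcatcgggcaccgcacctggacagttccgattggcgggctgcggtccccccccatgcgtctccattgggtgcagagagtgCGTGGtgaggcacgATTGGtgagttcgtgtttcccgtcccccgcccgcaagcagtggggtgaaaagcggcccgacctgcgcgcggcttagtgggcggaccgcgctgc

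Calr, chr8:84846932-84847181, minus strand: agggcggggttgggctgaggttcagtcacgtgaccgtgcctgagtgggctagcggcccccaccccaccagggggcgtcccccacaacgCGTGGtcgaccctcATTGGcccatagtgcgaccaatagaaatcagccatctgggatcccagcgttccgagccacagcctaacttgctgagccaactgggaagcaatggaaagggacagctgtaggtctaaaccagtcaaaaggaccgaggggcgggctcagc

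Canx and Pdia6 carried the same element beside small or divergent ratios, and their copies are shown for comparison with those above, together with the element of Dnajb11. The last belongs to a related type, ERSE-II, searched as ATTGG, any base, then CCACG, which 12 of 27025 genes held, or 0.0444%. Each is written along the strand on which it reads forward.

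Canx, chr11:50325800-50325818, minus strand: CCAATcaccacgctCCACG

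Pdia6, chr12:17266491-17266509, plus strand: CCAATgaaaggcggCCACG

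Dnajb11, chr16:22857852-22857862, plus strand: ATTGGcCCACG

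The elements began 65 bases before the gene start in Hspa5, 212 and 107 in Hsp90b1, 162 in Calr, 145 in Canx and 98 in Pdia6, and 8 bases after it in Dnajb11. Neither full element was found in the windows of Pdia3, Pdia4 and P4hb, although single parts of them, such as CCAAT, occur there. A further element of the response, TGACGTGG, was in 0 of the 9 genes and in 0.714% of all genes. A match is a string of letters and not a shown binding site.

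**Figure D1:**
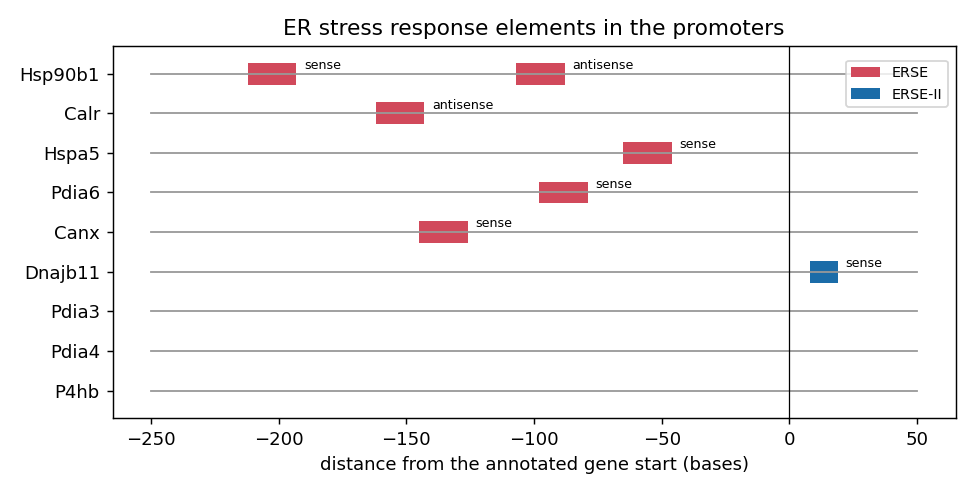
Position of the ER stress response elements in the promoters of 9 genes, in bases from the annotated gene start (vertical line at 0). Red boxes are ERSE and blue boxes ERSE-II, and the words give the orientation relative to the gene. Hsp90b1 has 2 ERSE copies, Hspa5, Calr, Canx and Pdia6 have 1 each, and Dnajb11 has an ERSE-II just after its start.

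The arrays measured between 10922 and 13132 of 17280 probes. Values are log ratios, read as log2, which give no level, so that the tissue label could not be checked by abundance. Of the alveolar type 2 and club cell markers on the array, 8 of 10 and 12 of 12 had enough values to be tested. The array of mouse 3 stood apart, with an SD over probes of 0.215 against 0.325 to 0.490 in the others and a correlation with them, across probes that are not independent, of 0.168 to 0.417. Repeated spots of 10 sequences had a median SD within an array of 0.0911 to 0.136, which is the precision of a single spot. Signs are those of the deposited ratio. The labels do not settle whether OVA is above or below the line, so no sign is read here as higher or lower in OVA lungs, and "folds apart" gives the size alone and assumes base 2. In whole lung, a change in the number of cells of a type and a change in RNA per cell cannot be told apart.

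All 10 probes had a negative mean, and their median was -0.48, beside a median of -0.003 over all 11629 probes tested. Among the heat shock type chaperones and their partners, Hsp90b1, the ER member of the Hsp90 family (also Grp94), folds receptors and integrins. Its log2 ratios were -0.96, -1.50, -0.79, -1.40, -1.25 and -1.24 in mice 1 to 6. All lay on the negative side, with mouse 3 nearest to 0 and mouse 2 farthest, and the mean was -1.19 ± 0.27 (SD, n = 6), 2.28-fold apart from the pool. Hspa5, or BiP, the Hsp70 chaperone that also holds the stress sensors inactive, was at -0.99, -1.31, -0.90, -0.94, -0.41 and -0.69. Mice 5 and 6 were nearest to 0, mouse 3 lay among the others, and the mean was -0.87 ± 0.30 (SD, n = 6), 1.83-fold apart.

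Dnajb11, a J-domain partner that delivers chains to BiP, followed Hspa5 at a smaller size. Its ratios were -0.64, -0.87, -0.34, -0.67, -0.10 and -0.22 in mice 1 to 6, with a mean of -0.47 ± 0.30 (SD, n = 6). Mice 5 and 6 were again nearest to 0. The difference Hspa5 minus Dnajb11 was -0.40 ± 0.11 (SD, n = 6), the smallest SD among the 45 pairs of probes, which were compared after their values were seen. Hyou1 (also Grp170), which releases nucleotide from BiP, was at 0.09, -0.16, -0.06, -0.02, -0.11 and 0.14. These values lay on both sides of 0, and their SD between mice was 0.115, within the range given above for repeated spots.

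The lectin chaperone Calr, which binds newly made glycoproteins and stores calcium in the ER lumen, had the largest mean of the genes. Its log2 ratios were -1.27, -1.66, -1.35, -1.49, -0.78 and -1.59 in mice 1 to 6. Mouse 5 alone was above -1, mouse 3 lay close to the mean of -1.36 ± 0.32 (SD, n = 6), and the size was 2.56-fold. Canx, the membrane-bound relative of Calr, had 2 probes that disagreed. Probe 10230 was at -0.21, -0.62, -0.015, -0.21, -0.73 and -1.13 (mean -0.49 ± 0.41, SD, n = 6), farthest from 0 in mouse 6 and at 0 within spot precision in mouse 3. Probe 5228 stayed between -0.14 and 0.01 (mean -0.06 ± 0.05, SD, n = 6). Which transcript each probe detects is not given in the sources used here, so no single value is given for Canx.

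Among the disulfide isomerases, Pdia3 (ERp57), which works with Calr and Canx on glycoproteins and in class I assembly, stood out. Its ratios were -0.46, -1.23, -0.36, -0.95, -1.14 and -1.15 in mice 1 to 6, with a mean of -0.88 ± 0.38 (SD, n = 6), 1.84-fold apart. Mice 1 and 3 were near -0.4 and the other 4 at -0.95 or beyond. Mice 1 and 3 were also the pair nearest to 0 for Hsp90b1, and Hsp90b1 minus Pdia3 was -0.31 ± 0.18 (SD, n = 6).

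The other isomerases lay nearer to 0. Pdia4 (ERp72), an isomerase found in complexes with BiP, was at -0.38, -0.65, -0.04, -0.49, -0.10 and 0.25, on both sides of 0, with a mean of -0.23 ± 0.33 (SD, n = 6). Pdia6, which also binds BiP and acts on the sensor Ire1, was at -0.08, -0.33, 0.01, -0.10, -0.04 and -0.10, with a mean of -0.11 ± 0.12 (SD, n = 6). Apart from mouse 2 its values lay within 0.1 of 0. P4hb, the founding protein disulfide isomerase and a subunit of collagen prolyl hydroxylase, had -0.09, -0.39 and -0.17 in mice 1, 4 and 6 and no value in the others.

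**Figure D2:**
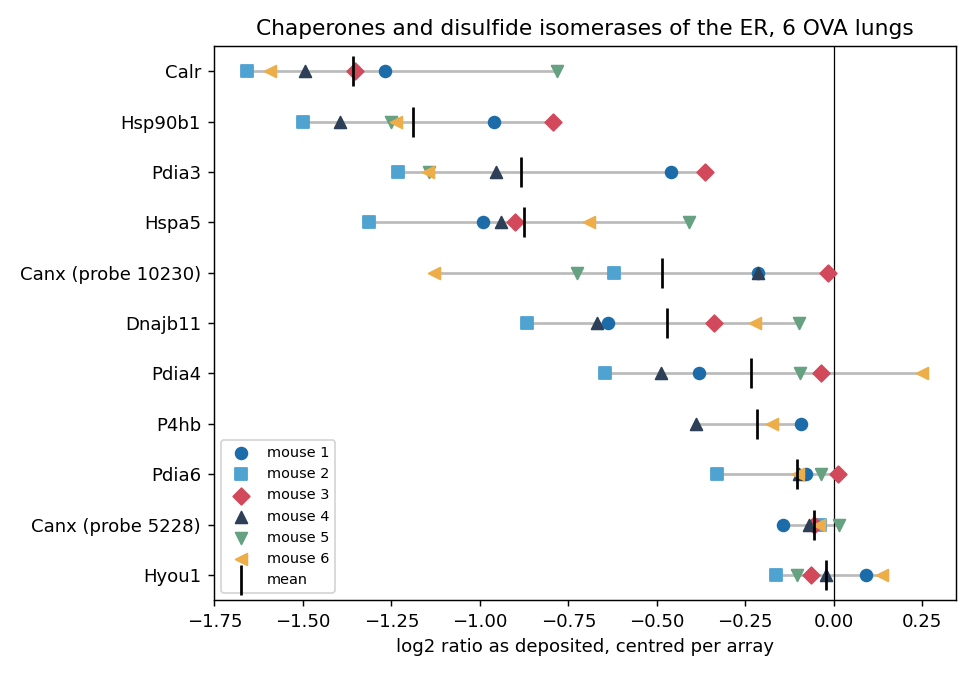
Log2 ratio (as deposited, centred per array, horizontal axis) of each probe of the listed genes, 1 symbol per OVA mouse, with grey lines for the range and black bars for the mean. Calr, Hsp90b1, Pdia3 and Hspa5 lie on the negative side in all 6 mice, whereas Hyou1, Pdia6 and 1 probe of Canx lie close to 0.

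The ranges of Calr and Hsp90b1 did not overlap with those of Pdia4, Pdia6, Hyou1 and Canx probe 5228, and those of Hspa5 and Pdia3 did not overlap with Pdia6, Hyou1 and Canx probe 5228. The ranges of neighbours in the order overlapped, such as those of Pdia3 and Hspa5, which differed by -0.009 ± 0.51 (SD, n = 6). Compared within each mouse, Hsp90b1 lay below Pdia3 and Dnajb11 below Pdia4 in all 6 mice, while the other neighbours changed order between mice. Of the 10 probes, 8 had their lowest ratio in mouse 2, while the highest was in mouse 3 for 4 probes, in mouse 5 for 4 and in mouse 6 for 2. Probes whose numbers differ by 6, 18 or 24 had correlated means (r = 0.133, 0.102 and 0.106 across probes). Near Calr, Hsp90b1, Hspa5, Pdia3, Dnajb11, Pdia4 and Canx probe 10230, no probe at these distances with a tested value had a larger mean on the same side. The other listed probes did have such neighbours, among them Actr3 at -1.09 for Pdia6, Zbp1 at -1.34 for Hyou1 and Gbp8 at -0.30 for Canx probe 5228.

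The choice of these genes for a persisting ratio in mouse 3 held for some of them and not for others. In mouse 3, Calr was at -1.35 against a mean of -1.36 in the other 5 mice, and Hspa5 at -0.90 against -0.87. Hsp90b1 was at -0.79 against -1.27 and Dnajb11 at -0.34 against -0.50. Pdia3 was at -0.36 against -0.99, and Canx probe 10230 at -0.015 against -0.58. On the array of mouse 3, Calr had rank 3 from the lowest among 11439 probes, against ranks 69 to 253 in the other mice. Hspa5 had rank 25 against 150 to 911, and Hsp90b1 rank 43 against 67 to 385. Pdia3 had rank 513 against 91 to 1224, and Canx probe 10230 rank 5208 against 184 to 2609. The other arrays ranked between 10770 and 12969 probes. These ranks come from the values that chose the genes and are a description.

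Among the 5 listed probes at or below -0.5 in the mean of the other mice, 3 had a mouse 3 ratio on the same side and at least 0.5 times as large, against 144 of 631 other probes, or 22.8%. Those 631 probes had a median of -0.12 in mouse 3 and of -0.73 in the other mice. Because these values chose the genes, nothing is read from this share. The comparison also depends on leaving the arrays at their own width: after scaling to equal spread, Calr in mouse 3 lay 0.48 beyond the mean of the other mice (difference -0.48 in place of 0.006), and after quantile normalization the difference was -2.31. For Hsp90b1 the difference was 0.47 as centred, 0.18 scaled and -0.52 quantile-normalized, and for Hspa5 it was -0.03 as centred and -1.28 quantile-normalized.

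**Figure D3:**
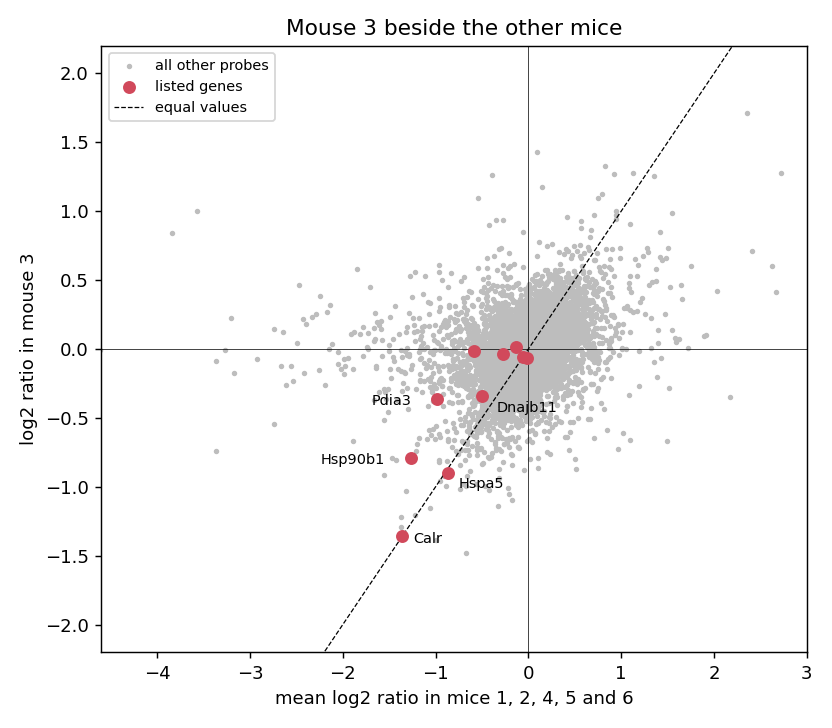
Log2 ratio in mouse 3 (vertical axis) against the mean of mice 1, 2, 4, 5 and 6 (horizontal axis) for all tested probes with a value in mouse 3 (grey) and the listed genes (red), with a dashed line at equal values. Calr and Hspa5 lie on the line at -1.35 and -0.90 in mouse 3, and Hsp90b1 and Pdia3 lie above it.

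Genes that work with these chaperones were compared with the pool by a fit over all probes (limma, ratio against 0, Benjamini-Hochberg adjusted p at 0.05). In that fit 24.4% of probes were called, and taken as genes 12.8% were called with a negative mean and 12.7% with a positive one. Over 9 lists of related genes, without the genes above, 51 of 211 genes were called negative and 11 positive, with a median of -0.10. Without mouse 2, and likewise without mouse 4, 36 of these 62 were called. Calls over all probes fell from 2832 to 1376 and 1325 in these 2 runs, so fewer calls in a list are not particular to it. Of the other folding factors of the ER lumen, 11 of 38 were called negative and 4 positive (median -0.08), and 8 in all without mouse 2 or mouse 4. Serpinh1, the collagen chaperone, was at -0.75, -1.07, -0.92, -1.03, -0.62 and -1.06 in mice 1 to 6 (mean -0.91 ± 0.18, SD, n = 6, limma adjusted p = 0.00163). It was close to that size in mouse 3 too. Sdf2l1, part of the BiP complex, was at -0.84 (limma adjusted p = 0.00606) and Manf, a secreted BiP cofactor, at -0.78 (limma adjusted p = 0.0152, and 0.0531 at most without mouse 2 or mouse 4). Manf was at -1.01 in mouse 3 and at -0.12 and -0.22 in mice 5 and 6, the mice in which Hspa5 and Dnajb11 were also nearest to 0. Agr2, an isomerase of mucous cells and thus also a marker of them, was at -1.33 but at 0.19 in mouse 3, and lost its call without mouse 1, 2, 4 or 6 (limma adjusted p = 0.0967 at most). On the positive side, Lrpap1, a chaperone of lipoprotein receptors, was at 0.67 (limma adjusted p = 0.00688).

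Sensors and transcription factors of the unfolded protein response mostly had no call. Of 22 genes, 1 was called negative and 2 positive (median 0.001), and 6 in all without mouse 3. Atf3, a factor induced by many stresses, was at -0.96 (limma adjusted p = 0.0109) and at 0.026 in mouse 3. Chac1, a glutathione-degrading enzyme induced through Atf4, was on the other side at 0.40 (limma adjusted p = 0.0109), and Atf5 at 0.19 (limma adjusted p = 0.0327, lost without mouse 1, 2, 4 or 5). The central genes of the response are given next as values and were chosen after these were seen. Xbp1 was at -0.13 (limma adjusted p = 0.211, and 0.0334 without mouse 1), Atf6 at -0.19 (0.0752, and 0.0101 without mouse 3), and Atf4 at -0.29 (0.108). Ern1 was at -0.13 (0.0689), Eif2ak3 at -0.16 (0.458) and Ddit3, the factor Chop, at 0.11 (0.529). Whether the Xbp1 probe reads the spliced form is not given, and activation of Atf6 by cleavage leaves its mRNA unmarked.

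Steps before and after folding had calls mainly on the negative side. For entry of chains into the ER, 8 of 23 genes were called, all negative (median -0.25), but 1 without mouse 2, 2 without mouse 4 and 5 without mouse 5. Ssr1, of the complex beside the translocation channel, was at -0.62 (limma adjusted p = 0.0207, at most 0.0680 without mouse 2, 4, 5 or 6), and Ssr2 of the same complex at -0.50 (0.0190, at most 0.0631 without mouse 2 or 4). Srp9, of the signal recognition particle, was at -0.41 (limma adjusted p = 0.00598). The signal peptidase subunits Spcs3 and Spcs2 were at -0.46 (limma adjusted p = 0.0456, lost without mouse 2, 4, 5 or 6) and -0.34 (0.0486, lost without any 1 of the 6 mice). For transport between ER and Golgi, 9 of 31 were called, all negative (median -0.18). They included Arf4, a GTPase of Golgi vesicles, at -0.94 ± 0.20 (SD, n = 6, limma adjusted p = 0.00163) and -0.82 in mouse 3, and Kdelr3, a receptor that returns chaperones with a KDEL end to the ER, at -0.74 (limma adjusted p = 0.00433). The vesicle coat proteins Sec13 and Sec24d were at -0.44 (limma adjusted p = 0.00516) and -0.46 (0.0225, lost without mouse 2, 4, 5 or 6), and both were farther from 0 in mouse 3, at -0.55 each, than in the mean of the others. Sar1a, at -2.82 (limma adjusted p = 0.00799), had the lowest mean of this list and was also called without each single mouse. The probe numbers of Sar1a and Clca1 differ by 18, and at this distance means correlated weakly (r = 0.102 across probes). Whether the Sar1a ratio was affected by Clca1 was not tested.

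For glycan transfer, 6 of 23 were called negative and 2 positive (median -0.02), and 5 in all without mouse 4 or mouse 6. Ostc, an oligosaccharyltransferase subunit, was at -0.70 (limma adjusted p = 0.00350) and -0.81 in mouse 3, and Pmm1, an enzyme of mannose supply, at 0.59 (limma adjusted p = 0.00433). Pgm3, an enzyme of the sugar nucleotide supply, was at -0.52 (limma adjusted p = 0.00754). The oligosaccharyltransferase subunits Rpn2 and Ddost were at -0.35 (limma adjusted p = 0.0177, lost without mouse 4 or 6) and -0.31 (0.0286, lost without mouse 2, 4, 5 or 6), and lay at -0.06 and -0.04 in mouse 3. For ER-associated degradation, 5 of 24 were called, all negative (median -0.05), led by the ubiquitin-conjugating Ube2j2 at -0.41 (limma adjusted p = 0.00286) and by Edem1, which recognizes trimmed glycans, at -0.34 (limma adjusted p = 0.00955). Rad23b, which carries ubiquitinated chains to the proteasome, and Faf2, an adaptor of the same pathway, were at -0.32 each (limma adjusted p = 0.0121 and 0.00970), and Syvn1, a ubiquitin ligase of the ER membrane, at -0.26 (0.0143). The 5 calls of this list were also made in limma without each single mouse.

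For ER calcium stores, 1 of 15 genes was called negative and 2 positive (median -0.03), with 0 calls in limma without mouse 2 or mouse 4 (5 and 3 genes at an unadjusted p under 0.05), 1 without mouse 5 and 5 without mouse 3. The calcium channel Itpr2 was at 0.34 (limma adjusted p = 0.0303, lost without mouse 2, 4 or 5). Calu, a calcium-binding protein of the secretory pathway, was at -0.25 (limma adjusted p = 0.0333, lost without mouse 1, 2, 4 or 6), and Casq1, the calcium store protein of skeletal muscle, at 0.16 (0.0264, lost without mouse 1, 2, 4 or 5). For class I loading, in which Calr and Pdia3 take part, 2 of 8 were called, both negative (median -0.30), and 0 in limma without mouse 1, 2, 4, 5 or 6 (2 to 5 genes at an unadjusted p under 0.05). B2m, the light chain of class I molecules, was at -0.69 (limma adjusted p = 0.0485) and at -0.07 in mouse 3, and H2-T23, a nonclassical class I chain, at -0.63 (0.0291) and 0.22 in mouse 3. Chaperones of cytosol and mitochondria had 8 negative calls and 1 positive call among 28 (median -0.17). Hsp90aa1, the inducible cytosolic Hsp90, was at -0.43, -1.001, -1.38, -1.11, -1.28 and -1.18 in mice 1 to 6 (mean -1.06 ± 0.34, SD, n = 6, limma adjusted p = 0.00336), and mouse 3 had its lowest value. Stip1, the cochaperone between Hsp70 and Hsp90, was at -0.47 (limma adjusted p = 0.00547) and -0.55 in mouse 3. Cct5 and Cct2, subunits of the cytosolic chaperonin, were at -0.46 (limma adjusted p = 0.0277, lost without mouse 2, 4 or 6) and -0.43 (0.0110). Pfdn5, a prefoldin subunit, was on the other side at 0.71 (limma adjusted p = 0.00530).

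**Figure D4:**
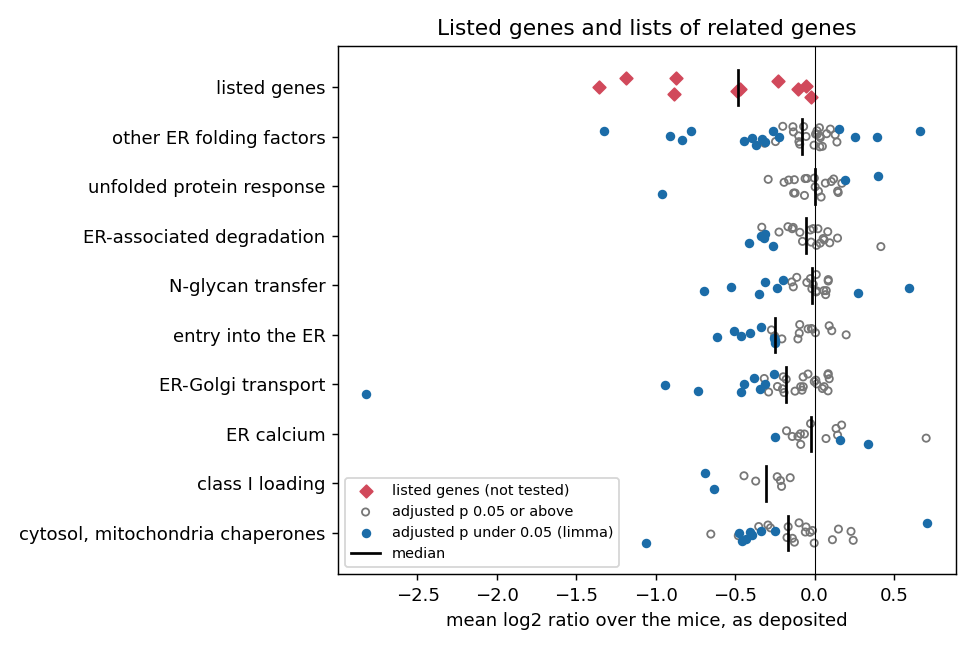
Mean log2 ratio over the mice (as deposited) of the listed chaperones and isomerases (red, not tested) and of the genes of 9 related lists, filled where limma's adjusted p was under 0.05, with black bars for medians. The members reach from -1.36 to -0.02, and calls in the lists for entry into the ER, transport to the Golgi and degradation are all on the negative side.

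Beyond the listed genes, 14 genes with an ERSE and 7 with an ERSE-II were tested, and 5 of the 21 were called, all negative, with a median of -0.02. Over all genes tested, 12.8% were called negative and 12.7% positive, and no difference from these shares was tested. Among the 5 called were Dnajc3, a BiP cochaperone that restrains Perk, at -0.37 (limma adjusted p = 0.010), and Syvn1, described above, at -0.26. The other 3 were Spats2l at -0.46, Hnrnpa3 at -0.21 and Lrif1 at -0.19 (limma adjusted p = 0.0243, 0.0235 and 0.0257), and each of these lost its call without at least 3 single mice (mouse 2, 5 or 6 in all 3 genes, and mouse 4 in Spats2l and Hnrnpa3). Others with an element lay near 0 or beyond it on the positive side, such as Creld2 at -0.14 (limma adjusted p = 0.129), Derl3 at -0.02 (0.846) and Herpud1 at 0.42 (0.123). These 3, and the called genes of this group other than Syvn1, were chosen after their values were seen.

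Markers of the cell types that a lung sample could hold are given beside these values. Their counts of calls stand beside 12.8% of all genes tested called negative and 12.7% called positive. No difference of any marker list from these shares was tested. Mucous cell genes (5 of 11 called, all negative) had a median of 0.14 in mouse 3, against -1.42 to -0.21 in the other mice, and macrophage genes (7 of 13, all negative) 0.25 against -1.60 to -0.45. The mucous list was led by Clca1, a secreted regulator of chloride channels, at 0.84 in mouse 3 and -3.84 in the mean of the others, and by the anion exchanger Slc26a4 at -0.74 and -3.37. The macrophage list was led by Retnla at 1.005 in mouse 3 and -3.57 in the others, and by arginase Arg1 at 0.14 and -2.75, both products of macrophages in type 2 responses. Dividing cell genes (12 of 17, all negative) had 0.06 in mouse 3 against -1.26 to -0.40, with the mitotic kinase Cdk1 at 0.22 in mouse 3 and Ube2c, a ubiquitin-conjugating enzyme of mitosis, at -0.31.

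Fibroblast genes (7 of 14 negative, 1 positive) had -0.16 in mouse 3 against -0.66 to 0.03. Their largest were the collagen chains Col3a1 and Col1a1, at -0.08 and -0.91 in mouse 3 and at -1.99 and -1.56 in the mean of the others. Of 14 genes in the plasma cell list, the 6 tested were Cd79a, Irf4, Ighm, Cd79b, Derl3 and Mzb1. Jchain, Sdc1, Prdm1 and Tnfrsf17 were not among them. The tested set is not specific to plasma cells, and Derl3 is also in the degradation list, so no conclusion on plasma cells is drawn. None of the 6 was called in limma, and Mzb1 alone had an unadjusted p under 0.05, on the positive side at 0.15. The median of these genes was 0.24 in mouse 3 against -0.46 to 0.12. Cd79a and Irf4, their largest, were at -0.32 and -0.28 in the mean over all mice (limma adjusted p = 0.222 and 0.342). The part of fibroblasts, plasma cells and other cell types in the chaperone ratios was not tested.

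Club, heart muscle, adipocyte and endothelial markers had a positive median of their mean ratios, although not every gene lay on that side. Their medians in mouse 3 were 0.16, 0.10, 0.16 and -0.01, against lowest values in the other mice of 0.40, 0.39, 0.18 and 0.19, with 8 of 12, 9 of 13, 5 of 10 and 6 of 11 genes called, all positive. The genes with a negative mean were Pecam1 and Emcn for endothelium (-0.36 and -0.14) and Hp for club cells (-0.10), without a call. The largest means were those of Gsta3 and Bpifa1 for club cells (2.13 and 1.62), Cox8b and Myl4 for heart muscle (1.77 and 1.60), Adipoq and Cidea for adipocytes (2.30 and 2.25) and Ramp2 and Tek for endothelium (1.09 and 0.93). Cidea kept 1.71 in mouse 3. Alveolar type 2 markers were called on both sides, 3 negative and 1 positive among 8, with a median of -0.18 in mouse 3, and the surfactant genes Sftpa1 and Sftpc were at -0.61 and 0.60 in the mean.

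Leaving out single mice changed these counts by more than 1.5 times for several lists. Calls over all probes fell as well, from 2832 to 2356, 1376, 1325, 2050 and 1708 without mouse 1, 2, 4, 5 or 6. No difference between the lists and this general loss was tested. Without mouse 2 the calls were 1 for mucous, 1 for macrophage, 5 for fibroblast, 5 for club, 0 for alveolar type 2 (limma, with 4 genes at an unadjusted p under 0.05), 3 for heart muscle and 5 for dividing cell genes, and without mouse 4 they were 2, 1, 5, 5, 1, 3 and 5 in the same order. Without mouse 6 the mucous, macrophage, fibroblast, alveolar type 2 and heart muscle counts were 3, 1, 5, 2 and 4. Macrophage and alveolar type 2 counts were 1 and 2 without mouse 1 and 2 and 2 without mouse 5.

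**Figure D5:**
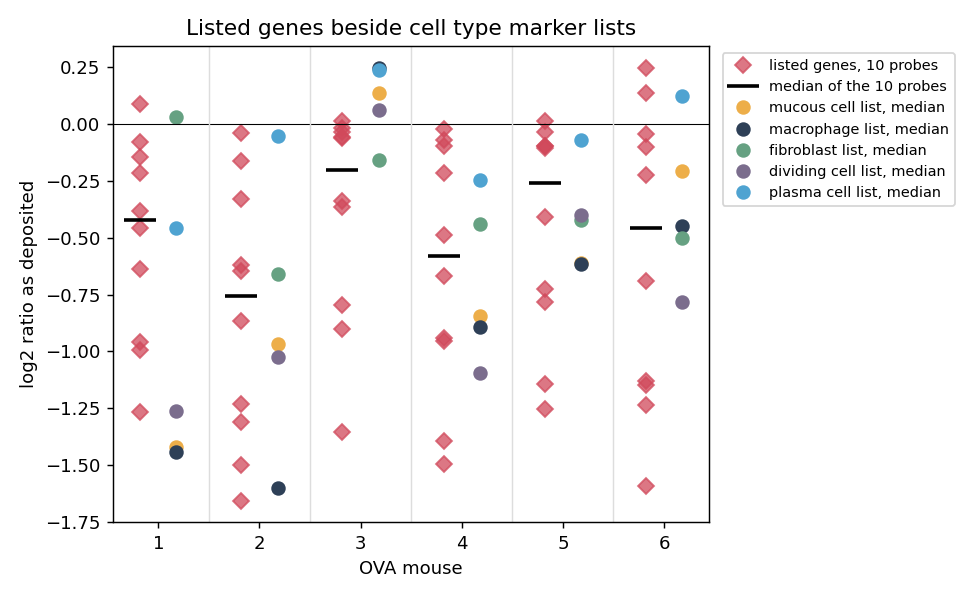
Log2 ratio (as deposited, vertical axis) in each OVA mouse of all 10 probes of the listed genes (red diamonds, with a black bar for their median) and the median of 5 cell type marker lists (circles). In mouse 3 the 10 probes spread from -1.35 to 0.012 with a median of -0.20, and the medians of the marker lists from -0.16 to 0.25; the mouse 3 ratios of the listed genes were used to choose them.

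The genes whose 6 ratios lay nearest to the mean profile of the 10 probes (-0.50, -0.84, -0.39, -0.63, -0.46 and -0.58 in mice 1 to 6), by root mean square difference over 7494 genes, were Ciao2a at 0.0865, Cant1 at 0.112 and Pctp at 0.115. Cant1 is a nucleotidase of the ER and Golgi, and Pctp carries phosphatidylcholine. Iqgap1 and Nfxl1 were at 0.116 and 0.117. Ppic, a cyclophilin of the secretory pathway, Loxl1, an oxidase that crosslinks elastin, and Rbpj, the DNA-binding factor of Notch signalling, were at 0.126, 0.128 and 0.131. By Pearson correlation with the same profile in place of the difference, the 8 highest genes included 0 of these 8.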

How the data were processed

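Lung RNA of 6 OVA mice was hybridised on 2-colour arrays against 1 pool of control lung RNA. The authors deposited 1 log ratio per spot, read here as log2. Scanner, background correction, normalization, dyes, log base and direction were not given in the sources used here, and a natural logarithm would make each fold larger. Probes were named by the platform annotation, with symbols updated through RefSeq (14445 of 14722). Arrays were centred on their median over the 8663 probes measured on all arrays, which was between -0.012 and 0.008 as deposited. After leaving out 170 repeated control rows and 4 plant rows, 11629 probes with values on at least 4 arrays entered a limma fit (version 3.58.1, R 4.3.3) of the mean ratio against 0 (intercept, eBayes, two-sided, Benjamini-Hochberg). Gene lists used 1 probe per gene, the one on most arrays, ties by file order. The pool is 1 sample, so the spread between control mice is left out, and without a known dye swap dye effects do not cancel. The number of arrays also limits the precision. The fit was tested on simulated data.

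The members and lists were chosen with earlier results of these data known. Named genes are every member, up to 5 genes with the largest mean among those called per pathway list, up to 2 per marker list (up to 2 as values in a list with no call), and the 8 nearest genes by root mean square difference. Other settings tried were uncentred, scaled and quantile-normalized arrays, leaving out each mouse, other minimum numbers of arrays, robust eBayes, array weights, a stricter threshold, and means over the probes of a gene. One setting, without probes that lie beside a stronger probe, was chosen after seeing the data. Plots were made in matplotlib 3.10.9.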

Additional observations from a re-analysis of the deposited data

Results flagged for a closer look

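Of 86 probes and genes examined, 6 had 1 mouse far from the others by Dixon's 95% bound, and chance alone flags about 1 in 20. Among the listed genes this was Pdia6, whose mouse 2 was at -0.33. Mouse 3 was the one apart for Clca1 at 0.84, Sar1a at -0.088, Atf3 at 0.026 and Rbpj at -0.23. For Chac1 it was mouse 6 at 0.78.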

How the results depend on the processing

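Of 190 recomputed values of the listed genes, 183 moved by less than the spread between mice. The 7 that moved were the scaled and quantile differences given above for mouse 3 (Calr -0.48 and -2.31, Hsp90b1 0.18 and -0.52, Hspa5 -1.28), and Canx, whose 2 probes averaged -0.27 and lay 0.28 above the other mice in mouse 3. Scaling widens mouse 3 by construction. The mean of Hyou1 was 0.008 without mouse 2. Called probes numbered 2832, between 1325 (without mouse 4) and 3036 (without mouse 3) when a mouse was left out, and 746 at an adjusted p of 0.01. Called genes of the related lists numbered 62, between 36 and 68, and 23 at 0.01. With probes beside a stronger probe left out they numbered 54, and those of ER-Golgi transport 7 in place of 9. The cause was not tested beyond fewer samples and the stricter threshold. Of 68 called named genes, 41 kept the call without each mouse and 27 lost it without at least 1, and 0 changed side under any alternative run. Most were named for a call with a large mean or for a profile near that of the listed genes. That choice favours keeping a call and a side, so nothing is read from these counts. Over all probes, 1311 of the 2832 calls were also made without mouse 4, and 2509 without mouse 3. No paired analysis was possible because all arrays belong to 1 group. A single ratio nearer to 0 than the SD of repeated spots, 0.0911 to 0.136 by array, lies within spot precision. What else limits ratios near 0 was not tested.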
